A study of Drosophila melanogaster with 51 samples.

Results

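The COP9 signalosome takes the small modifier Nedd8 off cullins, the scaffold proteins of a large class of ubiquitin ligases. CSN5 is the subunit that carries the metalloprotease activity, and CSN4 is one of the subunits that hold the complex together. In Drosophila the complex is known for roles in larval development, oogenesis, photoreceptor differentiation and the response to DNA breaks. The comparison described here sets larvae of one CSN5 allele, csn51, against larvae of another, csn53, at 96 h after egg deposition, the latest larval age sampled.

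The members are the 10 arrays labelled csn51 or csn53 at 96 h, 5 of each allele, out of 51 arrays in all, and every gene of the deposited table was used. Each array carried RNA of whole mutant larvae in one dye and RNA of age-matched w118 larvae, the wild type, in the other. In each allele replicates 1 and 2 had the mutant RNA in Cy3 and replicates 3, 4 and 5 had it in Cy5. A dye effect thus cancels in the difference between alleles for a feature with a value on all 10 arrays. For other features it need not cancel, and the fit allows for dye by 1 coefficient. The other arrays referred to are csn51 and csn53 at 60 h (4 and 5 arrays) and at 72 h (4 and 4 arrays), and csn5null and csn4null at 96 h (4 arrays each), all against wild type of their age. The labels call the replicates of an experiment biological repeats, and they do not give the lesion of either allele.

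A value is the log2 ratio of mutant over wild type, and the allele difference is the csn51 value minus the csn53 value, so that a positive difference means more RNA in csn51. The direction of the deposited ratios is not stated. Wild type over mutant is the likely one. CSN5 on the arrays labelled csn5null and CSN4 in csn4null averaged 2.03 and 2.19 above 0 as deposited (CSN5 with 1 array near 0). Every sign was turned for that reason, to give mutant over wild type. If the direction were the opposite, all signs below would turn. In whole larvae, fewer cells of a type and less RNA per cell cannot be told apart. The wild-type samples of both alleles carry the same replicate numbers and may be the same RNA, so csn51 and csn53 ratios to wild type are given side by side and were not correlated.

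The arrays of the alleles were not alike in quality. Between 452 and 737 of the 6621 entries had no value on the csn51 arrays, against 32 to 65 on the csn53 arrays (exact permutation test, two-sided p = 0.00794, the smallest that 5 against 5 arrays allow). The SD of the ratios over all features was 0.86 to 0.95 on csn51 arrays and 0.62 to 0.78 on csn53 arrays, again without overlap (p = 0.00794 by the same exact test). Csn51 replicate 1 stood apart from its own group, with a median correlation of 0.55 with the other csn51 arrays, while the others had 0.74 to 0.82. The median SD of a feature within a group was 0.26 in csn51 and 0.17 in csn53. Of the features, 256 had a value on no csn51 array (74) or on 1 (182) and were not tested. Among the 96 h arrays used beside them, csn5null replicate 3 correlated with the other csn5null arrays at a median of only 0.07. The part of missing values and of the wider spread in the results below was not tested beyond the fits named beside them.

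The first check was the targeted gene. CSN5 ratios were -0.15, -0.14, -0.33, -0.43 and -0.22 on the csn51 arrays, against -0.28, -0.27, -0.15, -0.08 and -0.27 on the csn53 arrays. The ranges overlap, and the means of -0.25 ± 0.13 in csn51 and -0.21 ± 0.09 in csn53 (SD, n = 5 each) gave a difference of -0.04 that did not pass (exact permutation test, p = 0.595). CSN4 averaged 0.11 ± 0.11 in csn51 and -0.03 ± 0.18 in csn53 (SD, n = 5 each; difference 0.14, exact permutation p = 0.167). No difference in CSN5 RNA was thus detected between the alleles, and the arrays do not measure the protein. On the arrays labelled csn5null at 96 h the CSN5 ratio was -3.84, -3.11, -0.01 and -1.16. Replicate 3, the array with the low correlation, thus read at the wild-type level, against its label, and the csn5null mean was -2.03 with it and -2.70 without it. Csn5null values are therefore given with and without that array.

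The alleles differed in 242 of 5931 features tested, or 4.08% (limma, Benjamini-Hochberg adjusted p under 0.05). In csn51, 117 features were higher (1.97% of those tested, 95 of them named genes) and 125 were lower (2.11%, 89 named). The median difference was 0.80 over the higher features and -0.89 over the lower ones, and 45 and 50 of them exceeded 1 in size. The csn51 arrays that measured a feature did not overlap the csn53 arrays in 62 of the higher features and 69 of the lower ones. Of the 78 higher and 90 lower features with a value on all 10 arrays, 44 and 48 did not overlap. Over all features tested, the csn51 arrays with a value lay wholly above the csn53 arrays in 2.55% and wholly below in 2.92%.

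Most of the features that passed in the fit of all arrays were farther from wild type in csn51. Csn51 lay above wild type and farther from it than csn53 in 109 of the 117 higher features, and below wild type and farther from it in 115 of the 125 lower ones. These features were selected by the allele difference, and the same share over all tested features was not counted. Against wild type, csn51 differed in 3267 of 5931 features tested (55.1%) and csn53 in 2506 of 6186 (40.5%). The order of these counts depends on how the spread of the arrays is treated, since they were 2367 in csn51 and 2512 in csn53 on scaled arrays (every array brought to the same median absolute value), and 3272 and 3773 with array weights. Among the 22 higher and 17 lower features that passed on scaled arrays, csn51 was the farther allele in 15 and 9. Among the higher features both alleles differed from wild type in the same direction in 58, csn51 alone passed that test in 50, csn53 alone in 7, and in 2 they passed in opposite directions. Among the lower features these counts were 58, 52, 8 and 7.

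**Figure D1:**
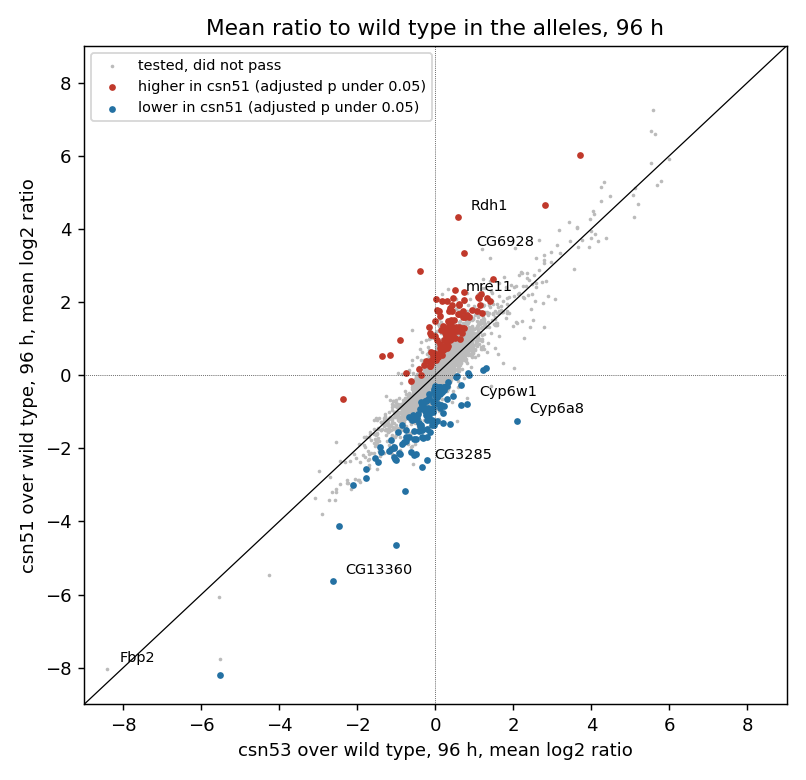
Each point is a tested feature, with the mean log2 ratio to wild type in csn53 on the horizontal axis and in csn51 on the vertical axis, both at 96 h. The 117 features that passed as higher in csn51 (red) lie above the diagonal, the 125 lower ones (blue) lie below it, and the named points include Rdh1 far above the line and Cyp6a8 far below it.

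The number of calls depends on how the spread of the arrays is treated. A fit of the 10 arrays alone called 46 features, 39 of them among the 242, and the fit of scaled arrays called 39, of which 36 were among the 242. On scaled arrays the difference of 28 of the 42 named genes described here that passed changed by more than 1.5 times, Argk1 with a turn of sign. Leaving out csn51 replicate 1 gave 320 features, 207 of them shared with the 242. Of the 242 features, 43 had fewer than 4 csn51 values. One of them is sut4, a gene named here because of its values, with 6.69 and -1.01 on the only csn51 arrays that measured it. Genes that passed in all 3 fits (all arrays, the 10 arrays alone, and scaled arrays) are therefore described first. There were 17 such features, 9 higher and 8 lower in csn51, and 13 of them are named genes. They were not stable in every fit. On scaled arrays with the 10 arrays alone, CG10550, CG3397, Cyp9c1, DCTN4-p62, Nup44A and mre11 did not pass.

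Rdh1, annotated as a retinol dehydrogenase, had the largest difference of the features tested. Its ratios were 4.91, 3.78, 3.70, 5.27 and 3.90 on the csn51 arrays, against 0.04, 0.81, 0.72, 1.00 and 0.32 on the csn53 arrays, with a wide gap between the alleles (difference 3.74 ± 0.35 SE, adjusted p = 9.73e-10), and the difference was 2.48 on scaled arrays (adjusted p = 0.000539). The same gap was present earlier. At 60 h the csn51 arrays read 4.44, 4.20, 3.79 and 3.93, and the csn53 arrays 0.66, 0.76, 0.94, 0.97 and 0.79 (difference 3.25, adjusted p = 1.65e-07). At 72 h the difference was 3.28 (adjusted p = 3.96e-07). Rdh1 was also high in csn4null at 96 h, at 3.41 to 4.16, and on 3 of the 4 csn5null arrays, at 2.31 to 2.85, with 0.50 on replicate 3 (mean 2.00 with it and 2.50 without it), so among the 4 mutants csn53 was the lowest.

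DCTN4-p62, a subunit of the dynein cofactor dynactin, overlaps Rdh1 in the RefSeq annotation, so its entry may measure both genes. It had ratios of 1.21 to 2.29 in csn51 and 0.26 to 0.44 in csn53 (difference 1.39 ± 0.24 SE, adjusted p = 0.000196), and 0.92 on scaled arrays. The alleles differed by 1.32 at 60 h (adjusted p = 0.00349) and by 0.83 at 72 h, where DCTN4-p62 did not pass (adjusted p = 0.0659). Nup44A, a nuclear pore protein, read 1.05, 2.27, 1.28, 2.51 and 1.68 in csn51, against -0.02, 0.09, 0.29, 0.10 and -0.07 in csn53. All csn51 arrays were above 1 and all csn53 arrays near wild type (difference 1.68 ± 0.22 SE, adjusted p = 2.66e-06). Its difference was 1.40 at 60 h (adjusted p = 0.000518) and 1.05 at 72 h (adjusted p = 0.0124).

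CG9512, a gene of the glucose-methanol-choline oxidoreductase family, had the alleles on opposite sides of wild type. It read 0.21, 0.49, 0.57, 0.81 and 0.54 in csn51, against -1.9997, -1.59, -0.80, -0.77 and -1.70 in csn53 (difference 1.90 ± 0.20 SE, adjusted p = 2.12e-08). The difference was 1.89 at 60 h (adjusted p = 1.65e-07) and 1.66 at 72 h (adjusted p = 6.41e-06). At 96 h csn5null had 0.33 to 1.10 (0.80 to 1.10 without replicate 3) and csn4null 0.34 to 0.52, and csn53 was the only one of the 4 mutants with a mean below wild type. CG3397 was likewise above wild type in csn51, at 0.38 to 1.87, and at or below it in csn53, at -1.34 to 0.06 (difference 1.87 ± 0.28 SE, adjusted p = 3.37e-05). CG3397 in csn53 replicate 4, at 0.06, lay far above the other 4 csn53 arrays.

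On the lower side CG10550 read -1.36, -2.02, -1.59, -1.84 and -1.66 in csn51, against -0.31, -0.67, -0.13, -0.21 and -0.45 in csn53 (difference -1.34 ± 0.15 SE, adjusted p = 9.55e-08, and -0.89 on scaled arrays). Its difference was of like size at 72 h, -1.47 (adjusted p = 3.06e-07), and -0.38 at 60 h, where it did not pass. CG10472, a serine protease gene, was below wild type in csn51, at -1.21 to -0.53, and above it in csn53, at 0.05 to 0.33 (difference -1.06 ± 0.19 SE, adjusted p = 0.000241). TAF1B and CG14033 also passed in the 3 fits, with differences of -1.03 and 0.75, and are named here after their values were seen.

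All 17 features that passed in the 3 fits had the same sign of difference at 60 h and at 72 h. Of these, 9 passed the test on their own at 60 h, where 0.194% of 6186 tested features did, and 11 at 72 h, where 3.64% of 6183 did. The arrays of those ages are other samples, but the tests at the 3 ages share 1 estimate of the spread per feature and are not independent. Among all 242 features the higher ones had the same sign in 87 of 117 at 60 h and 86 of 117 at 72 h, and the lower ones in 93 and 103 of 125, while over all tested features the sign was shared in 53.3% and 58.8%. At 60 h 4 of the higher and 6 of the lower features passed in the same direction (0.0808% and 0.113% of all features passed as higher and as lower there). At 72 h 13 and 25 did (1.34% and 2.30%), and none passed in the opposite direction at either age.

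**Figure D2:**
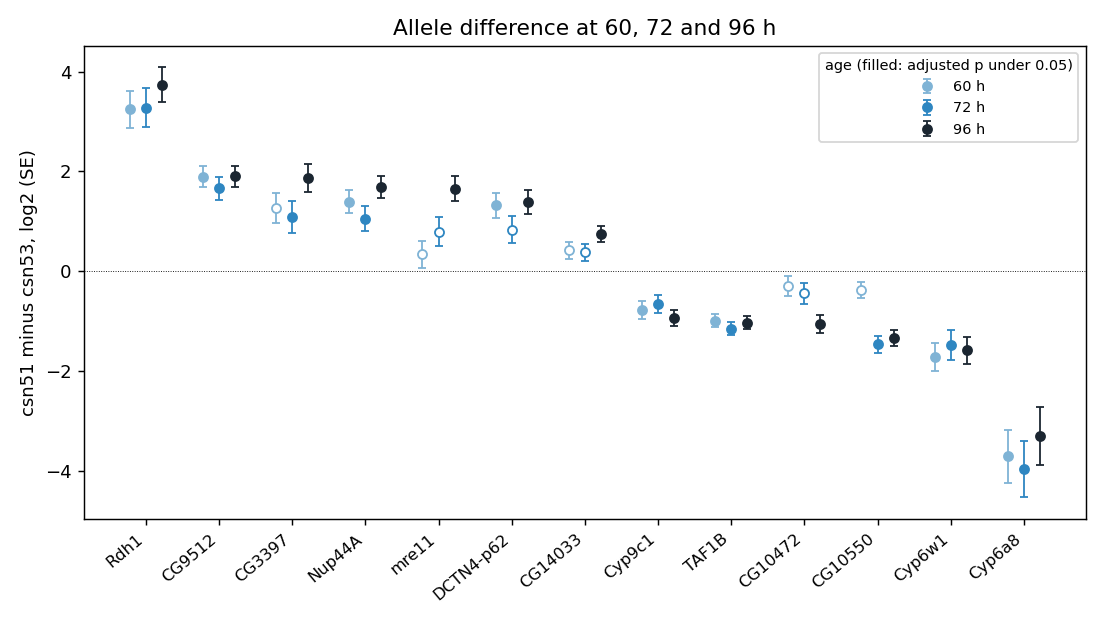
Allele difference (csn51 minus csn53, log2, bars are SE of the fit) at 60, 72 and 96 h for the 13 named genes that passed at 96 h in all 3 fits, with filled points for adjusted p under 0.05. All 13 keep their sign at every age, and Rdh1 stays above 3 and Cyp6a8 below -3 throughout.

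The test of whether the allele difference itself changed with age passed for few genes. Between 60 and 96 h it passed for 0 of 5931 features in limma (382 at an unadjusted p under 0.05), and between 72 and 96 h for 2 (0.0337%, with 625 at an unadjusted p under 0.05). CG6928 read 2.52, 4.98, 3.64 and 2.21 on the csn51 arrays that measured it at 96 h, against 0.42, 0.72, 0.63, 1.34 and 0.54 on the csn53 arrays. At 72 h it read -0.46 to 1.40 in csn51 and 0.71 to 1.62 in csn53, with overlap. The change between those ages was 3.38 (adjusted p = 0.000707). CG8136 read -2.48 to -0.59 in csn51 and -0.36 to 0.10 in csn53 at 96 h. Its difference at 72 h was 0.29, and the change was -1.71 (adjusted p = 0.00891). With only the csn51 and csn53 arrays of those ages in the fit, 0 features passed.

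The second group of genes is the MRN complex. Mre11, Rad50 and Nbs form the complex that binds and processes broken DNA ends and protects telomeres. Its 3 genes were the only ones of 14 tested genes of DNA damage response and repair to pass in either direction, and all 3 were higher in csn51. The median difference over the 14 genes was 0.22, against -0.01 over all features, where 1.97% passed as higher. With 1 array left out 3 or 4 genes of the list passed as higher (4 without csn51 replicate 1 or 2). This list and those below were chosen with earlier results of these data known. Their counts beside the share over all features are therefore descriptive.

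Mre11 codes for the nuclease of the complex, and its gene had ratios of 1.35, 2.17, 1.82, 2.77 and 2.47 in csn51, against 0.55, 0.63, 0.43, 0.15 and 0.56 in csn53. The lowest csn51 array was above the highest csn53 array (mre11 difference 1.65 ± 0.25 SE, adjusted p = 4.76e-05). Rad50, the ATPase that bridges the ends, read 0.98, 1.49, 1.30, 1.27 and 1.29 in csn51, against 0.54, 0.51, 0.72, 0.36 and 0.41 in csn53 (rad50 difference 0.76 ± 0.15 SE, adjusted p = 0.000847). Nbs, the regulatory subunit, read 0.77, 1.76, 0.96, 1.57 and 1.45 in csn51, against 0.59, 0.51, 0.34, 0.60 and 0.61 in csn53 (nbs difference 0.77 ± 0.12 SE, adjusted p = 7.66e-05). For all 3 genes the alleles did not overlap, and both alleles were above wild type.

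At 72 h the differences were 0.79 for mre11, 0.51 for rad50 and 0.62 for nbs, and only nbs passed (adjusted p = 0.00831). At 60 h the differences were 0.34, 0.20 and 0.38, and none passed. In csn4null at 96 h mre11 was 0.33 (limma adjusted p = 0.216), rad50 0.64 and nbs 0.69, and the csn5null values were 0.04, 0.48 and 0.34 (-0.08, 0.52 and 0.45 without replicate 3). The csn5null arrays of mre11 ranged from -0.86 to 0.93. Mre11 passed in all 3 fits (mre11 difference 1.10 on scaled arrays), while nbs was lost on the 10 arrays alone (adjusted p = 0.088) and both nbs and rad50 were lost on scaled arrays, where they differed by 0.41 (rad50) and 0.43 (nbs), which left 1 gene of the list.

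The other genes of the list did not pass. P53, the damage-responsive transcription factor, had a difference of 0.50 (p53 adjusted p = 0.0798). Ercc1, of nucleotide excision repair, had 0.43, mus304, the partner of the checkpoint kinase mei-41, 0.44, and Xpc, a damage sensor, 0.34. The recombination gene okr had 0.02, the checkpoint kinase gene lok 0.07, the helicase gene Blm 0.11 and the clamp gene Rad9 -0.13. Outside the list RfC4, a subunit of the clamp loader of DNA replication, read 0.94, 0.94, 2.12, 1.24 and 0.99 in csn51, against -0.03, -0.09, 0.46, 0.56 and 0.20 in csn53 (RfC4 difference 1.02 ± 0.28 SE, adjusted p = 0.0244). RPA1, which coats single-stranded DNA, and Ssrp, a chromatin factor, differed by 0.87 and 0.97 and are named after their values were seen. Neither of them passed in all 3 fits. Of 29 tested genes in a list for the cell cycle and DNA replication, which does not hold RfC4 or RPA1, 0 were higher and 1 was lower, where 1.97% and 2.11% of all features were, and their median difference was 0.05. The lower one was Prim2, a primase subunit, with only -0.06 and -2.48 on the csn51 arrays that measured it.

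**Figure D3:**
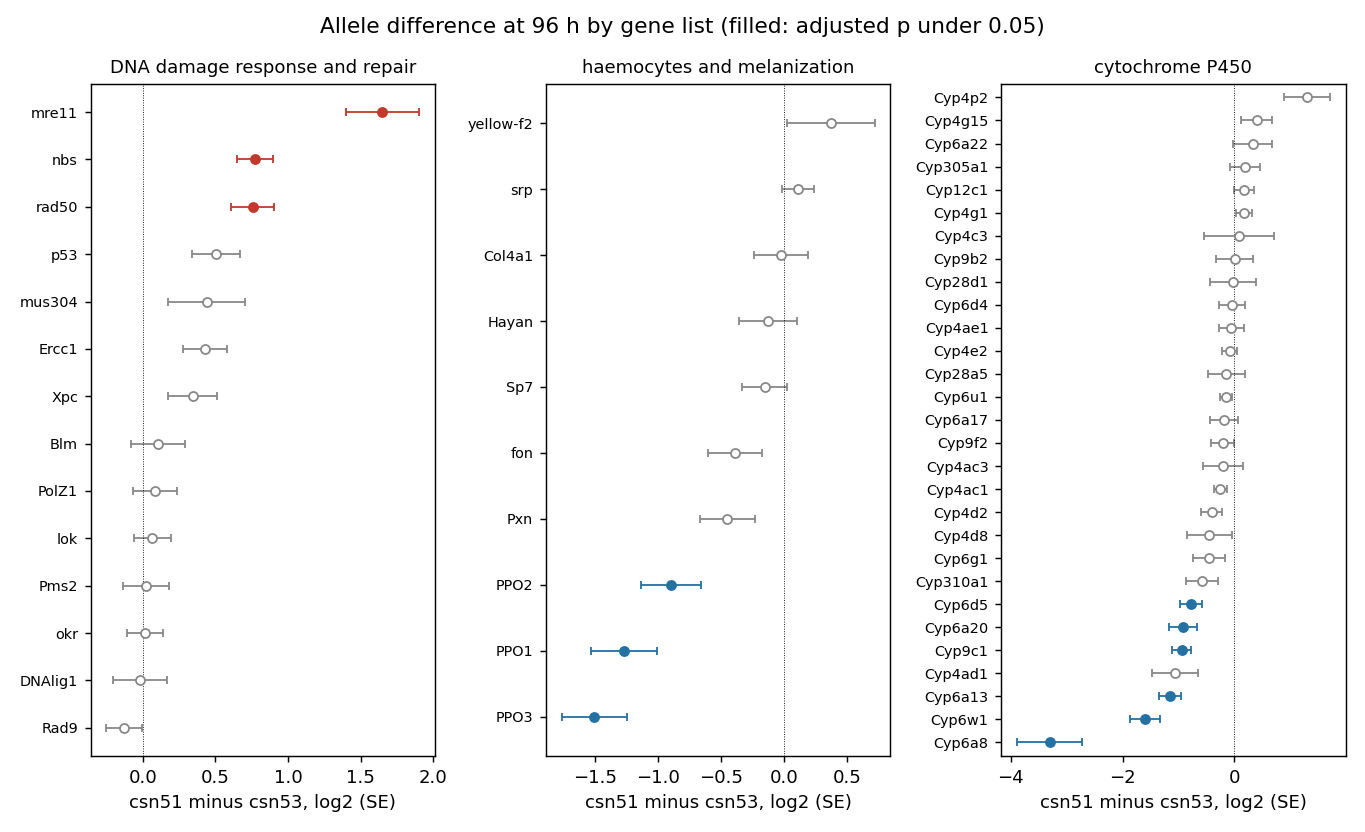
Allele difference at 96 h (csn51 minus csn53, log2, bars are SE of the fit) for every tested member of 3 gene lists, with filled points for adjusted p under 0.05. The MRN genes are the 3 filled points of the repair list, PPO1, PPO2 and PPO3 those of the haemocyte list, and 6 P450 genes are filled on the lower side.

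The third group is the cytochrome P450 family, the haem enzymes that oxidise hormones, lipids and foreign compounds. Of 29 tested P450 genes 6 were lower in csn51 and 0 were higher, and the median difference was -0.19. Over all features 2.11% passed as lower. With 1 array left out the count was 4 (without csn53 replicate 4) to 7 (without csn51 replicate 1), and it was 4 on the 10 arrays alone and on scaled arrays. The median of the P450 ratios on an array was -0.49 to -0.28 in csn51 and -0.09 to 0.14 in csn53.

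Cyp6w1 read -0.51, -0.90, -0.77, -0.72 and -0.997 in csn51, against 1.08, 0.72, 0.35, 1.09 and 0.83 in csn53. Every csn51 array was below wild type and every csn53 array above it (Cyp6w1 difference -1.59 ± 0.27 SE, adjusted p = 0.000171). Cyp9c1 followed the same order, at -0.93 to -0.39 in csn51 and -0.16 to 0.52 in csn53 (Cyp9c1 difference -0.94 ± 0.17 SE, adjusted p = 0.000241). Cyp6a13 was below wild type in both alleles, at -2.43 to -0.995 in csn51 and -0.70 to -0.13 in csn53 (Cyp6a13 difference -1.15 ± 0.20 SE, adjusted p = 0.000222), and did not pass on the 10 arrays alone (adjusted p = 0.0573) or on scaled arrays (Cyp6a13 difference -0.74, adjusted p = 0.0549).

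The other 3 P450 genes are named to complete the count, after their values were seen. Cyp6a8, induced by many foreign compounds, read -0.34, -1.67 and -1.73 on the 3 csn51 arrays that measured it, against 3.12, 1.69, 0.89, 2.47 and 2.26 in csn53 (Cyp6a8 difference -3.30 ± 0.59 SE, adjusted p = 0.000304). Cyp6a20 lay next to it among the tested genes and differed by -0.92 ± 0.25 SE (adjusted p = 0.021). Unlike Cyp6a8, Cyp6a20 was not among the genes that passed in all 3 fits. Cyp6d5 differed by -0.78 ± 0.20 SE (adjusted p = 0.0161), with overlapping arrays, and did not pass on the 10 arrays alone (adjusted p = 0.215). Against wild type, Cyp6d5 and Cyp6a20 did not pass in csn51 (0.05 and -0.24) and were higher in csn53 (0.82 and 0.68).

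Several of these genes also passed at the earlier ages. The Cyp6a8 difference was -3.71 at 60 h and -3.97 at 72 h (adjusted p = 4.92e-05 and 2.35e-05), and that of Cyp6w1 -1.72 and -1.47 (adjusted p = 0.000472 and 0.00491). Cyp9c1 had -0.78 and -0.66 (adjusted p = 0.0353 and 0.0368). At 96 h Cyp6a8 in csn4null was 3.75 to 4.84 and Cyp6w1 3.32 to 3.69, above every array of both CSN5 alleles. In csn5null at 96 h Cyp6a8 read 2.24, 1.65 and 2.52, with 0.28 on replicate 3. Cyp6w1 read 0.38, 0.60 and 0.57 there, with -0.43 on replicate 3. Of the remaining P450 genes Cyp4p2 had the largest positive difference, 1.30, which did not pass (adjusted p = 0.0635). Cyp4g1, needed for cuticular hydrocarbons, differed by 0.17. Of 9 glutathione transferases 1 was lower, GstE13 (-0.46 ± 0.12 SE, adjusted p = 0.0161), and of 8 UDP-glycosyltransferases 1 was lower, Ugt316A1 (-0.49 ± 0.09 SE, adjusted p = 0.000345), where 2.11% of all features passed as lower. Neither of these passed on the 10 arrays alone or with scaled arrays.

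The fourth group is the prophenoloxidases, the enzymes that make melanin at wounds and around parasites. PPO1 and PPO2 are made by crystal cells and PPO3 by lamellocytes, both blood cells of the larva. The 3 genes were lower in csn51, the only ones of 10 tested genes of haemocytes and melanization to pass, and 0 members were higher. The median difference of the list was -0.27. Over all features 2.11% passed as lower. With 1 array left out 2 or 3 of the genes passed, 2 of them without csn51 replicate 5 or csn53 replicate 1, 2 or 4, in each case without PPO2.

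PPO1 read -1.91, -2.15, -2.71, -1.61 and -2.47 in csn51, against -0.42, -0.50, -1.67, -0.53 and -1.38 in csn53 (difference -1.27 ± 0.26 SE, adjusted p = 0.00169). Its lowest csn53 array reached into the csn51 range. PPO2 read -1.56, -1.30, -1.46, -0.65 and -1.56 in csn51, against -0.02, -0.03, -1.01, -0.19 and -0.80 in csn53 (difference -0.89 ± 0.24 SE, adjusted p = 0.018). PPO3 read -1.09, -1.37, -1.56, -0.76 and -1.76 in csn51, against 0.47, 0.86, -0.95, 0.29 and 0.31 in csn53 (difference -1.50 ± 0.26 SE, adjusted p = 0.000202). In all 3 genes csn53 replicate 3 was the lowest csn53 array, and the arrays of the alleles overlapped. On the 10 arrays alone none of the 3 passed, with limma adjusted p-values of 0.081, 0.14 and 0.0573, and on scaled arrays only PPO3 did, with differences of -0.66 for PPO1 and -0.51 for PPO2.

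At 60 h PPO1 was 0.76 to 1.5035 in csn51 and 0.44 to 1.31 in csn53, both above wild type, with a difference of 0.31 that did not pass. In csn4null at 96 h all 3 genes were lower than in either CSN5 allele, with PPO1 at -3.76 to -3.19, PPO2 at -3.42 to -2.34 and PPO3 at -3.18 to -2.24. In csn5null at 96 h PPO1 read -2.07, -2.62 and -1.89, with -0.36 on replicate 3. PPO2 read -1.35, -1.74 and -1.88 there, with -0.45 on replicate 3. PPO3 read -0.05, 0.04 and -0.42, with -0.26 on replicate 3. Of the haemocyte genes that did not pass, Pxn, a matrix peroxidase, had a difference of -0.45, Col4a1, a collagen, -0.03 and srp, the blood cell transcription factor, 0.11. The median ratio of the 10 genes on an array was -0.76 to -0.14 in csn51 and -0.40 to 0.11 in csn53.

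**Figure D4:**
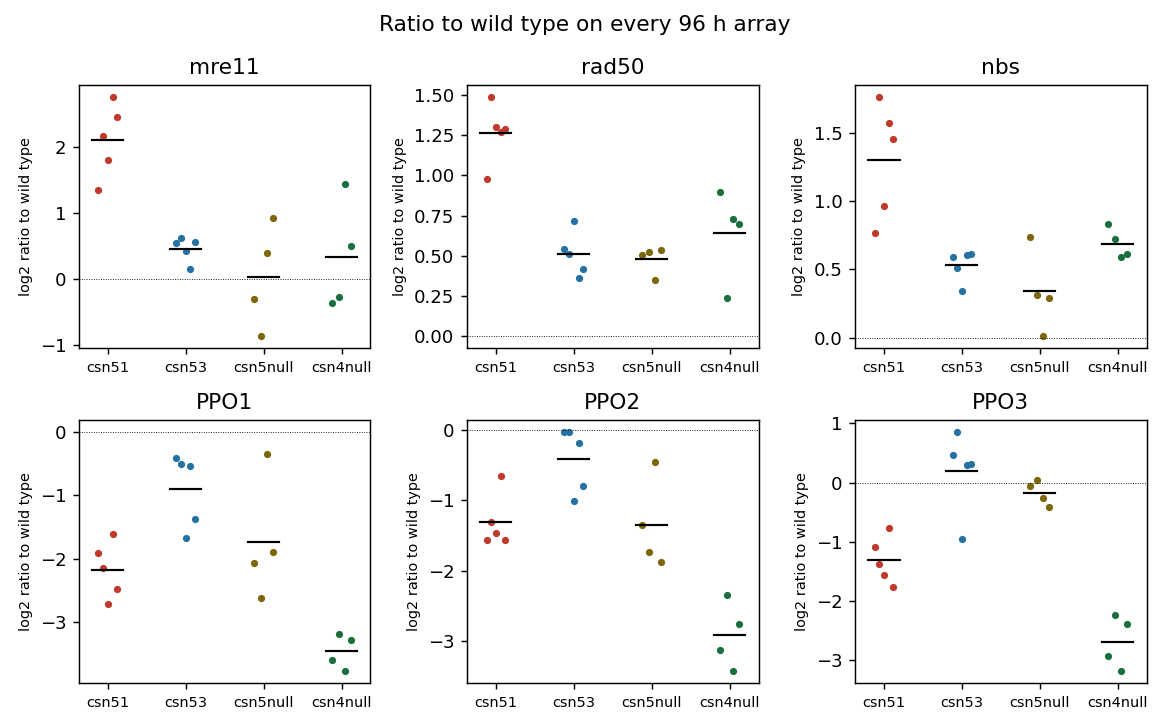
Log2 ratio to wild type on every 96 h array of csn51, csn53, csn5null and csn4null for the MRN genes (top row) and the prophenoloxidases (bottom row), with a black line at each group's mean. For mre11, rad50 and nbs all 5 csn51 arrays lie above all 5 csn53 arrays, and for PPO1, PPO2 and PPO3 the csn4null arrays are the lowest of all groups.

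Beyond these groups, the genes with the largest differences whose arrays did not overlap had mixed functions. Among the higher ones, Sbds, a factor that matures the large ribosomal subunit, read 1.36, 2.33, 2.58 and 1.89 in csn51, against 0.82, 0.70, 0.65, 0.71 and 0.84 in csn53 (Sbds difference 1.30 ± 0.22 SE, adjusted p = 0.00014). HBS1, which rescues stalled ribosomes, read 0.48 to 2.58 in csn51 and 0.14 to 0.32 in csn53 (HBS1 difference 1.06 ± 0.19 SE, adjusted p = 0.000339). The SD of HBS1 over the arrays was 0.82 in csn51 and 0.08 in csn53. The gene ais, a DEAD-box helicase of ribosome assembly, differed by 1.08 ± 0.30 SE (ais adjusted p = 0.0273). Of the 26 translation factors and 19 mitochondrial ribosomal proteins tested 0 passed, where 4.08% of all features did, with median differences of 0.05 and 0.04. CG7275, with a difference of 1.04, completes the higher genes.

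Among the lower ones CG13360 had the lowest mean in csn51. It read -5.77, -5.95, -5.53, -5.50 and -5.45 in csn51, against -1.98, -2.40, -2.89, -3.64 and -2.20 in csn53, a narrow range in csn51 and a wide one in csn53 (CG13360 difference -3.02 ± 0.47 SE, adjusted p = 6.86e-05). On scaled arrays the CG13360 difference was -1.35 and did not pass (adjusted p = 0.333). CG6839 read -1.87, -3.61, -1.92, -4.95 and -3.44 in csn51, against -0.44, -0.79, -0.53, -0.73 and -1.37 in csn53 (CG6839 difference -2.39 ± 0.43 SE). Sod3, an extracellular superoxide dismutase, was lower by 1.05 and exu, which localises bicoid RNA in the oocyte, by 1.00, and both were already below wild type in csn53. CG8478 (-1.24) and CG3345 (-1.04) were of like size. CG3285 rests on 1 array: it read -7.51 on csn51 replicate 4 and -1.60 to -0.98 on the others, against -0.67 to -0.05 in csn53.

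Of these genes Sbds, CG13360, CG8478, exu and Sod3 passed on the 10 arrays alone and not with scaled arrays, and for HBS1, CG6928 and CG8136 it was the reverse. The differences of ais, CG7275, RfC4, CG6839, CG3345 and CG3285 passed in neither.

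**Figure D5:**
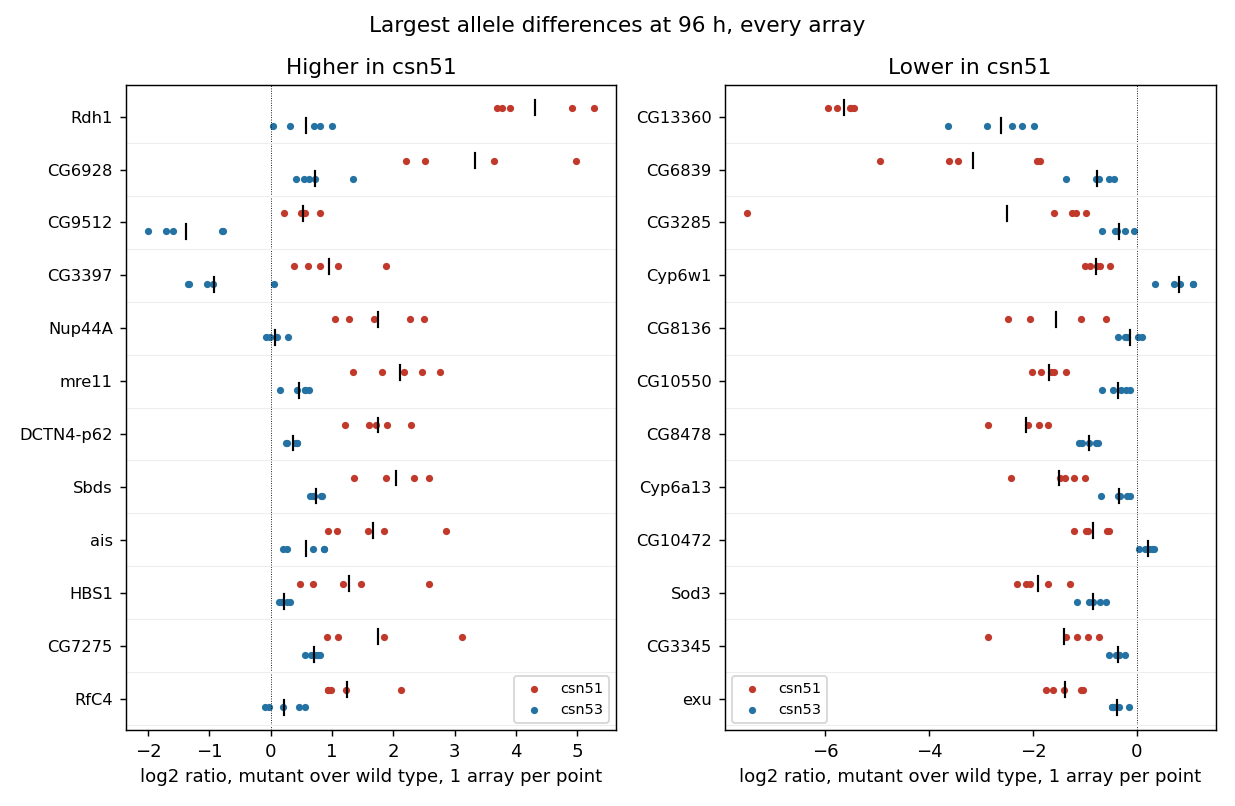
Log2 ratio to wild type on every 96 h array (1 point per array, black line at the mean) for the 12 named genes with the largest difference each way whose arrays do not overlap, with csn51 in red above csn53 in blue. CG9512, CG3397, Cyp6w1 and CG10472 have the alleles on opposite sides of wild type by mean, and most other genes have csn51 farther from 0.

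Single members passed in several other lists, where 4.08% of all features passed in either direction. SPE, the protease that activates the Toll ligand, was lower (-1.19 ± 0.29 SE, adjusted p = 0.00932, arrays overlapping), and PGRP-LE, an intracellular receptor for bacterial peptidoglycan, was higher (0.41 ± 0.10 SE, adjusted p = 0.012). They were the only 2 of 13 immune genes to pass. Argk1, the arginine kinase of muscle, read -2.25, -1.95, -1.88, -1.83 and -1.93 in csn51, against -1.48, -1.30, -1.52, -1.23 and -1.53 in csn53 (Argk1 difference -0.56 ± 0.11 SE, adjusted p = 0.000913), but with scaled arrays its difference was 0.013. It was the only 1 of 12 muscle genes to pass. LManV, a lysosomal alpha-mannosidase, was 1 of 13 midgut genes to pass (-0.95 ± 0.25 SE, adjusted p = 0.0169). Apoltp, a lipid transfer lipoprotein of the fat body, was the only 1 of 14 fat body genes (0.46 ± 0.11 SE, adjusted p = 0.0114). The esterase gene clt (0.49) and ND-15, a subunit of respiratory complex I (-0.37), passed alone in lists of 7 and 17 genes. Atg14 (1.53) and vls (0.82) passed with values far apart within csn51: Atg14 read -0.04, 3.41 and 1.52 on 3 arrays, and vls read 3.04 on replicate 5 and 0.27 to 0.92 on the others. Of the genes in this paragraph Argk1 passed on the 10 arrays alone and Atg14 on scaled arrays, and SPE, PGRP-LE, LManV, Apoltp, clt, ND-15 and vls passed in neither.

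The lists named next had 0 calls, where 4.08% of all features passed, and most hold too few genes to be told from that share. None of the 5 measured COP9 subunits passed, with differences from -0.20 to 0.14, nor any of 15 cullins, Nedd8 pathway genes and cullin ligase parts, from -0.31 to 0.57. Of 16 proteasome subunits none passed, and their median difference was -0.16. The 5 measured Osiris and moult-phase genes were all above wild type in both alleles by the test and all had a negative allele difference, with a median of -0.50, and 0 passed. Of 13 ecdysone response genes, 13 cuticle proteins and 20 genes of chitin and cuticle formation 0 passed, with medians of 0.04, 0.16 and -0.09. Fbp2, a fat body protein of the late larva, was far below wild type in both alleles, at -8.10 in csn51 and -8.50 in csn53, and its difference of 0.40 did not pass. The 15 glycolysis and sugar genes, 19 heat shock and chaperone genes, 12 neuronal and glial genes and 8 eye disc genes also had 0 calls.

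Positions were counted with the RefSeq gene order. Of the 50 tested genes nearest to CSN5, 1 passed, CG18213, where 4.08% of all features did. Among the called genes 6 pairs had no tested gene between them, and in 3 of these both members differed in the same direction, Rdh1 with DCTN4-p62 among them. The order held 4450 tested genes, of which 3.25% to 4.87% were called on a chromosome arm. How many such pairs chance alone gives was not tested. Several named genes overlap another gene in the annotation, so that their entries may measure both: mre11 with Osi21, nbs with CG14174, Nup44A with ACC, CG9512 with Flo2, CG13360 with tw, PPO1 with Elk, Sbds with Ist1, exu with galla-1 and vls with lok. The same holds for CG10472 with CG6592, Cyp9c1 with CG13594, CG6839 with CG18223, CG8478 with MED6, CG3345 with Dus1 and CG3285 with CG15408. It also holds for Atg14 with yem, SPE with CG18754, GstE13 with CG18659, and ND-15 with several genes.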

How the data were processed

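Per the labels, each array carried mutant and age-matched wild-type RNA in opposite dyes. The deposited table holds the authors' processed values of 6621 entries, taken here as log2 ratios. Background correction, normalization and filtering by the authors are not stated, nor are the log base (a natural logarithm would rescale all values alike) and the direction, so that scale and direction stay assumptions. Control entries (32) were left out and entries of a gene averaged, which gave 6187 features, 4698 of them named through the platform annotation and RefSeq (Release 6 plus ISO1 MT). Limma 3.58.1 in R 4.3.3 was fitted to all 51 arrays with 12 group coefficients and 1 dye coefficient. Features with at least 2 values in each group were tested, with Benjamini-Hochberg adjustment over all of them and a threshold of 0.05. The fit was tested on simulated data with the same spread of a gene in every group. The wider spread of the csn51 arrays was thus not part of that test. Genes were named by rule: CSN4 and CSN5, in each direction the 12 largest differences among named genes that passed, with at least 4 values per allele and no overlap, up to 3 passing members of each of 33 lists, and passing interactions. Exceptions are marked. The comparison, lists and rule were chosen with earlier results of these data known. Alternatives were the fits listed at the end. Plots used matplotlib 3.10.9 (Python 3.11.15). The number of arrays limits the precision, and signal over background is not known from ratios.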

Additional observations from a re-analysis of the deposited data

Results flagged for a closer look

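In 7 of 86 sets of arrays checked (a named gene in 1 allele at 96 h), 1 array lay far from the rest of its allele, where chance alone gives about 1 in 20. In csn51 these were CG3285 at -7.51 on replicate 4 (the others -1.60 to -0.98), Argk1 at -2.25 on replicate 1 (the others -1.95 to -1.83) and GstE13 at 0.0176 on replicate 1 (the others -0.49 to -0.38). RfC4 was at 2.12 on replicate 3 (the others 0.94 to 1.24), vls at 3.04 on replicate 5 (the others 0.27 to 0.92) and PPO2 at -0.65 on replicate 4 (the others -1.56 to -1.30). In csn53 it was CG3397 at 0.0641 on replicate 4, with the others at -1.34 to -0.95.

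The allele difference changed between 72 and 96 h by 3.38 for CG6928 and by -1.71 for CG8136, the only features that passed the interaction test in the fit of all arrays.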

How the results depend on the processing

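The 242 features that passed at 96 h became 46 on the 10 arrays alone, 39 with arrays scaled to one median absolute value, 8 with both (chosen after seeing the data), 151 with a value on all arrays, and 603 with array weights. With the replicate number as a block on the 10 arrays alone 23 passed, against 46 without it, and 18 of the 23 were among the 242. The numbers were not taken as pairs: residuals of same-numbered arrays correlated at -0.15 to 0.29, 4 of 5 over 0.1, and 4 of 5 csn51 arrays correlated best with their own number. The share of higher features was 30.4% with the block, 45.7% on the same arrays without it and 48.3% on all arrays. Of the 42 named genes that passed, 17 still did on the 10 arrays, 15 scaled, 4 with both and 11 with the block. Mre11 and Nup44A, which passed in all 3 fits described above, were lost with the block (limma adjusted p = 0.0813 and 0.067). Argk1 turned to 0.013 under scaling and under both. Csn53 against wild type gave 3773 with array weights. The change from 60 h passed for 3 features without csn5null and 150 with weights, and that from 72 h for 1 without csn5null, 165 with weights, 0 scaled and 0 on the arrays of those ages. The repair list had 1 member scaled, 6 with weights, and 0 with the block or with both. The P450 list had 1 with both. The haemocyte list had 0 on the 10 arrays, 1 scaled, 1 with the block and 0 with both. Leaving out 1 array gave 179 (csn53 replicate 4) to 320 (csn51 replicate 1) features. It gave 36 to 40 named genes, 0 to 27 changes from 60 h (27, 11 and 5 without csn51 replicates 1, 3 and 5, and 0 otherwise) and 1 to 18 from 72 h (18 without csn51 replicate 3 or csn53 replicate 4, and 7, 6 and 6 without csn51 replicates 1, 2 and 5). With 1 array left out, 33 calls of 13 named genes were lost (limma adjusted p 0.0505 to 0.213) and none turned. Without csn51 replicate 1 these were LManV and PGRP-LE, without 2 ais, without 3 ais, GstE13, ND-15 and RfC4, without 4 Atg14, CG7275 and SPE, and without 5 ais, PPO2 and vls. Without csn53 replicate 1 they were LManV, PPO2, RfC4 and vls, without 2 ais, Apoltp, PPO2, RfC4, SPE and vls, without 3 Prim2 and vls, without 4 ais, LManV, ND-15, PPO2, Prim2 and vls, and without 5 RfC4 and vls. Dropping the dye term, centring, testing each entry or leaving out csn5null gave 235 to 297 features and lost at most vls among the named genes. Without csn51 replicate 4 the differences were 0.64 (Atg14), -0.89 (CG3285), -0.69 (CG3345) and 0.58 (CG7275), Atg14 had 2.37 without csn51 replicate 3, and vls had 0.34 without csn51 replicate 5. The cause of these shifts was not tested.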
